A study of Mus musculus with 36 samples.

Results

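Accessible chromatin was measured in windows around 6 genes of the stressed heart muscle, Ankrd1, Xirp2, Flnc, Des, Acta1 and Clu. The members were all regions of the 9 deposited lists that overlapped 1 of 6 fixed mm9 windows, which gave 92 regions of the 122759 listed over 3 days. The windows were chr19:36130000-36250000 for Ankrd1, chr2:67240000-67400000 for Xirp2, chr6:29350000-29440000 for Flnc, chr1:75330000-75390000 for Des, chr8:126380000-126450000 for Acta1 and chr14:66550000-66630000 for Clu. The lists come from ATAC-seq, in which a transposase places sequencing adapters in open chromatin, on 6 libraries of left ventricular nuclei, all from FVB/N mice. There was 1 library from the border zone, the surviving muscle next to an infarct, and 1 from sham-operated hearts on each of days 4, 7 and 14 after surgery.

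The border zone and sham nuclei of day 4 came from mice with the alleles Cdh5-Cre and Sun1-sfGFP and were sorted for GFP, with a pulldown of PCM1, a protein around cardiomyocyte nuclei. The Cdh5 promoter is active in endothelium, and the labels do not say which sorted fraction was kept. The border zone and sham nuclei of days 7 and 14 are labelled Myh6-MerCrMer;nTnG, and the protocol for breeding also lists a reporter line, the Gt(ROSA)26Sor allele with CAG-Sun1/sfGFP. In these animals the Myh6 promoter drives a tamoxifen-inducible Cre in cardiomyocytes. They received tamoxifen at 20 mg/kg before surgery, in sham and infarcted animals alike, and 50000 sorted nuclei went into each library. Genotype, isolation and aligner therefore change together between day 4 and the later days, and a difference between those days cannot be told apart from them. The labels do not give age or sex, nor whether a library held 1 heart or a pool.

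The 6 genes have known roles in muscle under load. Ankrd1 encodes a titin-binding ankyrin repeat protein of the sarcomere and nucleus that is induced by stretch and after infarction. Xirp2 and Flnc encode actin-binding proteins of intercalated discs and Z-discs, Des encodes desmin, the intermediate filament that ties Z-discs together, and Acta1 encodes skeletal alpha-actin, which is re-expressed in the stressed heart. Clu encodes clusterin, a secreted chaperone.

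RefSeq sequences of the 250 bases before the transcription start were available for 5 of the genes. Those of Ankrd1, Xirp2 and Acta1 are printed to show which sites for muscle and stress transcription factors stand near their starts. They lie at chr19:36119845-36120094 on the minus strand, chr2:67445752-67446001 on the plus strand and chr8:123894776-123895025 on the minus strand of GRCm38.p6. That build differs from the mm9 build of the lists, so the sequences were not placed on any listed region. Capitals mark matches to the motifs named below.
Ankrd1: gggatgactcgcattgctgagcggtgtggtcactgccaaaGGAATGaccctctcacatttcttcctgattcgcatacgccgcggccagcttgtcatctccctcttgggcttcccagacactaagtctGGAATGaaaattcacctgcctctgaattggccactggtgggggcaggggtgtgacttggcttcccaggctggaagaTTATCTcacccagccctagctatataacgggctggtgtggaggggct
Xirp2: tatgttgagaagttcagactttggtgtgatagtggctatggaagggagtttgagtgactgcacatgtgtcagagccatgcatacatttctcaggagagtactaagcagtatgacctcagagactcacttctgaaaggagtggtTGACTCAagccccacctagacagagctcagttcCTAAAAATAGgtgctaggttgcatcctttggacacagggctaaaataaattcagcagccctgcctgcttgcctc
Acta1: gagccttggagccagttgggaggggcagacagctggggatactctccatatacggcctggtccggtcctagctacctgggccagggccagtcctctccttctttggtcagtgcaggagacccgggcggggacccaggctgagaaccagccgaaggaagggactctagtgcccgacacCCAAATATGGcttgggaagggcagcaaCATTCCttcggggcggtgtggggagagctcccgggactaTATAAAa

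Motifs were searched on both strands from 250 bases before to 50 bases after the start. The letters CATTCC, bound by TEAD factors, occurred at 2 places in the Ankrd1 promoter, from -210 to -205 and from -123 to -118, read as GGAATG on the printed strand, and at 1 place in the Acta1 promoter, from -46 to -41. They were found in 14.7% of all 32851 RefSeq promoter windows of the same length. The Ankrd1 promoter also held a motif of GATA factors with the letters AGATAA on the opposite strand, from -47 to -42, which occurs in 11.2% of windows. In Xirp2 the AP-1 motif TGANTCA stood from -107 to -101 and a MEF2 box from -74 to -65. These occur in 7.81% and 0.557% of windows. Acta1 had an SRF CArG box from -73 to -64, a motif in 1.63% of windows, and the letters of a TATA box (TATAAA) from -7 to -2, a motif in 13.6% of windows. Flnc had a CATTCC match in both of its promoters, which overlap, so that the match is the same site. The Des promoter had no match to these 6 motifs. The motifs did not overlap each other, and a match describes letters only.

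The 92 regions were not evenly spread over the windows or the lists. The authors listed 23 of them as having more tags in the border zone (border zone-higher), 9 as having more in sham (sham-higher) and 60 as non-differential. Ankrd1 held 25 regions, of which 12 were border zone-higher and 3 sham-higher. Xirp2 held 17, with 5 border zone-higher and 2 sham-higher. Flnc held 14, with 1 border zone-higher and 0 sham-higher, and Des held 23, with 1 border zone-higher and 3 sham-higher. Acta1 held 9, with 2 border zone-higher and 1 sham-higher, and Clu held 4, with 2 border zone-higher and 0 sham-higher. Among the 60 non-differential regions, 19 were in Des and 13 in Flnc. The median width was 1000 bp.

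By day, 12 of 38 member regions (31.6%) were border zone-higher on day 4 and 0 were sham-higher. For comparison, 12.2% of all listed regions of that day were border zone-higher, and 7.37% belonged to the sham-higher list. On day 7, 6 of 31 (19.4%) were border zone-higher and 7 (22.6%) sham-higher, against 17.5% border zone-higher and 22.0% sham-higher among all listed regions. On day 14 the members had 5 of 23 (21.7%) border zone-higher and 2 (8.7%) sham-higher, against 13.4% border zone-higher and 6.75% sham-higher. The day 7 shares were near those of all regions. Ankrd1 alone gave 6 of the 12 border zone-higher regions of day 4 and 4 of the 5 of day 14. Over the member regions, log2 ratios of border zone to sham had a median of 0.21, 0.11 and 0.06 for days 4, 7 and 14. The medians over all listed regions were -0.09, -0.14 and 0.03 for the same days. With 1 library per condition and day, no test within a day was possible. Regions with too few tags are in none of the lists, so an unlisted region has no value. Listed regions had at least 35, 50 and 150 tags in the larger library on days 4, 7 and 14. A region under that floor in 1 library was thus listed only through the other, which fixes the direction of its ratio.

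Tag densities, as whole tags per covered kilobase and 1000000 listed tags of the library, were highest for Ankrd1 in 5 of the 6 libraries. The exception was sham on day 4, where Des had 22.6 and Ankrd1 18.7. Ankrd1 had 40.1 in the border zone and 39.7 in sham on day 7. On day 14 its densities were 33.8 in the border zone and 21.7 in sham. Des followed at 19.2 to 22.2 in the border zone and 21.0 to 24.2 in sham. Xirp2, Flnc and Acta1 had 8.15 to 18.4 in the border zone and 7.29 to 21.2 in sham, where the 21.2 of Xirp2 on day 14 was level with the 21.0 of Des within counting error. On day 14 the border zone densities of Flnc (16.7), Acta1 (16.2) and Clu (15.1) had overlapping 95% counting intervals, and their order is not resolved. Clu had the lowest densities on day 4, 5.92 in the border zone and 2.91 in sham.

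**Figure D1:**
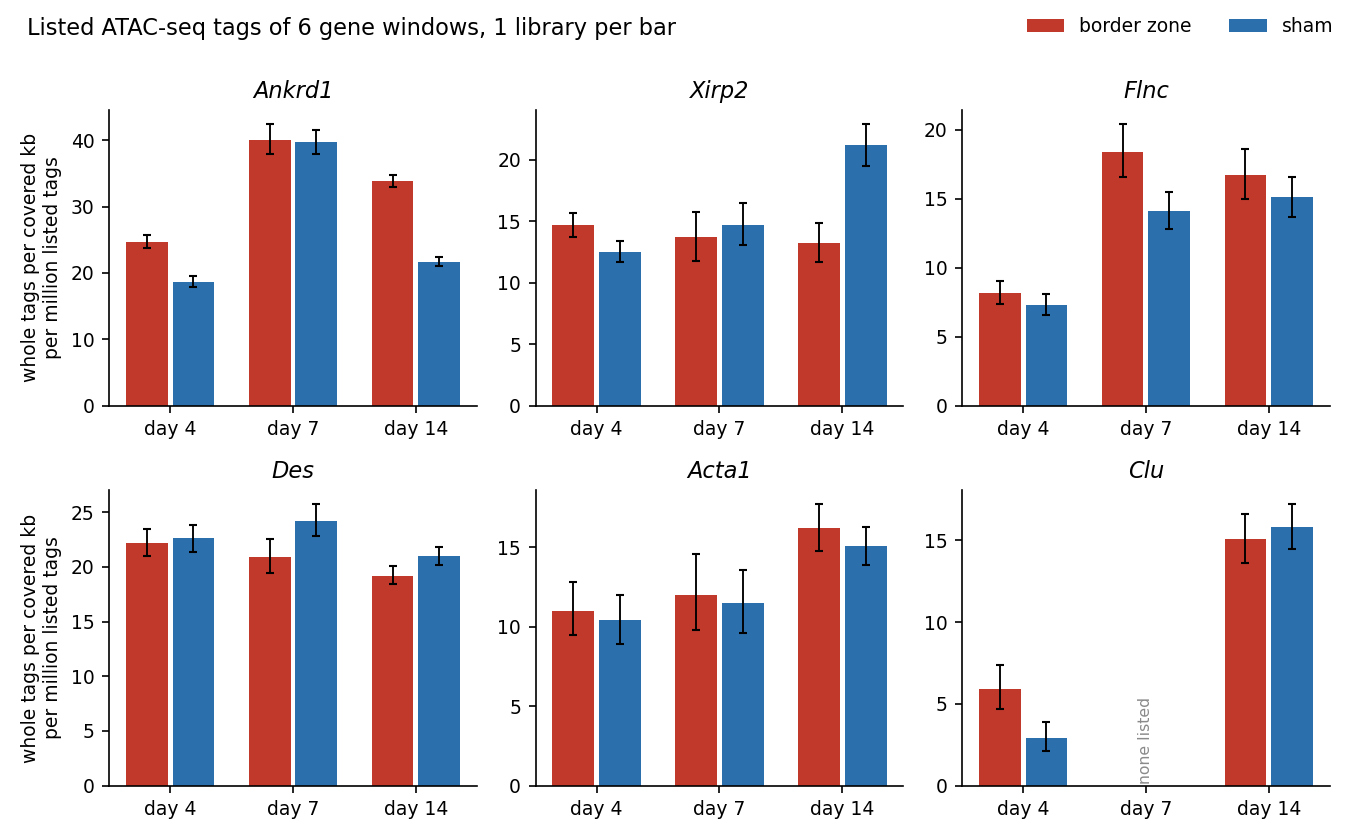
Whole tags per covered kilobase and 1000000 listed tags (vertical axis) in each gene window, with border zone bars left of sham bars and 1 library per bar; error bars are exact 95% Poisson intervals of the tag count. With the border zone higher, intervals do not overlap for Ankrd1 (days 4 and 14), Xirp2 and Clu (day 4) and Flnc (day 7). With sham higher, they do not overlap for Xirp2 on day 14 and Des on days 7 and 14. Clu has no listed region on day 7, and its day 4 regions were listed only through the border zone. So were some regions of Ankrd1 on days 4 and 14, of Xirp2 on day 4 and of Flnc on day 7. Some regions of Xirp2 on day 14 and of Des on day 7 were listed only through sham. In the deposited tags, the interval of the Xirp2 ratio of day 4 includes 1.

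To compare border zone with sham across the days, edgeR's quasi-likelihood test was run on whole tags, with day as a block and Benjamini-Hochberg adjustment over all features. For whole windows, the other features were windows of a fixed 100 kb grid. Of the 9931 windows with a listed region on every day, the test called 2.05% border zone-higher and 0.302% sham-higher. The Clu window had no region on day 7 and was not tested, and 0 of the 5 other windows were called, by edgeR or by DESeq2. At an unadjusted p under 0.05 there was 1, Ankrd1. The median log2 fold change of the 5 windows was 0.14, and that of all windows was 0.00 to 2 decimals. For loci, regions of different days were joined where they overlapped, which gave 43 member loci, 16 of them listed on all 3 days and tested. Of the 19733 loci tested in the genome, 7.67% were called border zone-higher and 2.31% sham-higher. Among the 16 member loci, 4 were called higher in the border zone, 3 in the Ankrd1 window and 1 in the Des window. On some days, some of these were listed only through the border zone, and some other tested loci only through sham. None of the 16 was called higher in sham, by edgeR or by DESeq2, and 0 were at an unadjusted p under 0.05 in that direction. Their median log2 fold change was 0.05, beside -0.01 over all loci. Without day as a block, edgeR called 0 of the 19733 loci, with 585 at an unadjusted p under 0.05, and the 4 member loci had an adjusted p of 0.997. With the authors' scaling of each day in place of TMM, the calls over all loci were 820 toward the border zone and 1611 toward sham, against 1513 toward the border zone and 456 toward sham with TMM. The 3 Ankrd1 loci were called with either scaling.

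**Figure D2:**
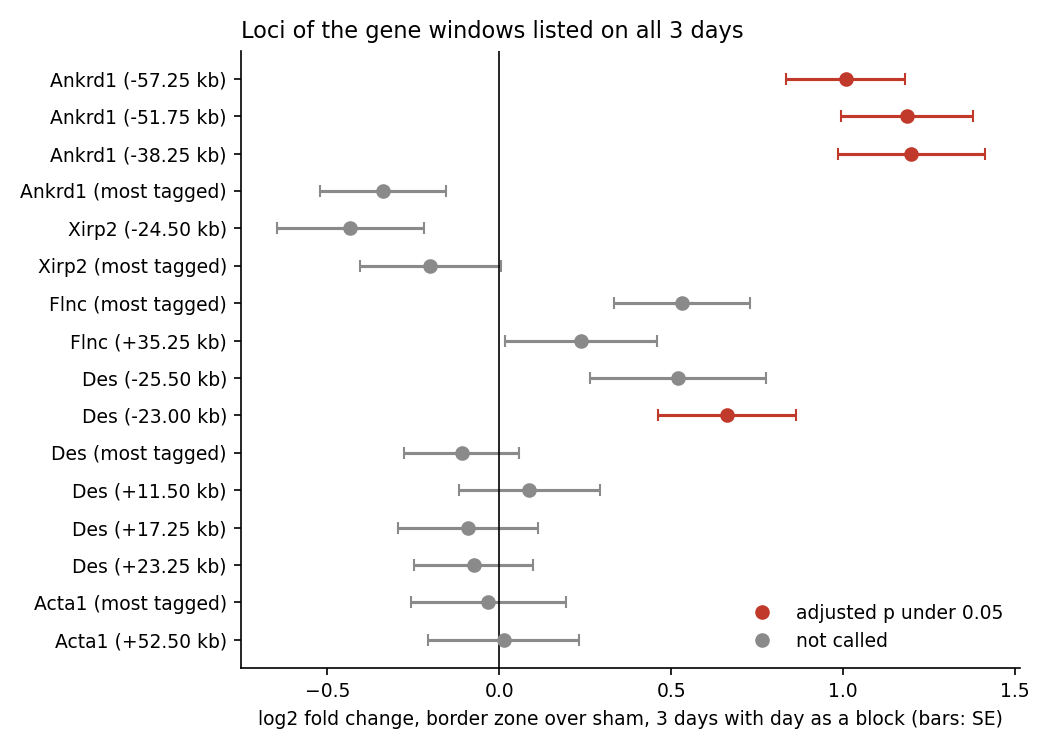
Log2 fold change of border zone over sham (horizontal axis, bars are SE) for the 16 member loci listed on all 3 days, named by gene and distance in kb from the most tagged locus of the window. Of the red points with adjusted p under 0.05, 3 are Ankrd1 loci at 1.01 to 1.20 and 1 is a Des locus at 0.66.

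In the Ankrd1 window, chromatin on one side of the window had more tags in the border zone on every day, while the most tagged locus did not. Summed over its regions, the window held 2587 deposited tags in the border zone and 2039 in sham on day 4. The ratio was 1.27-fold (95% interval 1.20 to 1.35). This day 4 border zone sum joins scaled tags of differential regions with unscaled counts of non-differential ones. The day 7 sums were 1696 in the border zone and 1762 in sham, 0.963-fold (0.895 to 1.03). Those of day 14 were 6708 in the border zone and 4236 in sham, 1.58-fold (1.52 to 1.65). The day 4 and day 14 ratios were above those of 91.2% and 94.3% of the tested windows and the day 7 ratio above 55.4%. Over the 3 days the window had a log2 fold change of 0.41 (SE 0.14), with an adjusted p of 0.109 in edgeR, so it was not called. Without day 4 its log2 fold change was 0.40 and its adjusted p 0.0292, in a fit that called 1459 of the 9931 windows border zone-higher and 1306 sham-higher.

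Within the window, loci differed in direction. The locus chr19:36181751-36188250 had 847 deposited border zone tags, scaled only in differential regions, and 423 sham tags on day 4. It had 1115 border zone and 831 sham tags on day 7, and 3030 border zone and 1455 sham tags on day 14. The border zone library was higher on all 3 days, least on day 7 at 1.34-fold and most on day 14 at 2.08-fold. The log2 fold change over the days was 1.01 (SE 0.17), with an adjusted p of 0.000553 in edgeR. Without day 14 the adjusted p was 0.137, and that locus was then no longer called. Its day 4 region with 20 sham tags was under the listing floor of 35 and was listed only through the border zone.

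The adjoining locus chr19:36188251-36192750 had 263 border zone and 164 sham tags on day 4, 90.2 border zone and 46 sham tags on day 7, and 1619 border zone and 659 sham tags on day 14. Its folds were 1.61, 1.96 and 2.46, all above 1 by their counting intervals. The log2 fold change was 1.19 (SE 0.19, edgeR adjusted p = 0.000341). Both loci together span 11 kb without a gap, so they are neighbouring pieces of the window rather than separate places. On day 7 only 1000 bp of the second piece was listed, while on day 14 all of it was. With 46 sham tags, under the listing floor, that day 7 region was listed only through the border zone. So were the day 4 regions of this locus with 27, 19 and 31 sham tags, under the floor of 35.

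The third called locus, chr19:36203251-36204750, had 191 border zone and 71 sham tags on day 4, 74.1 border zone and 47 sham tags on day 7, and 218 border zone and 110 sham tags on day 14. Its folds were 2.68, 1.58 and 1.98, and its log2 fold change was 1.20 (SE 0.21, edgeR adjusted p = 0.000814). Its sham tags were under the listing floor on days 7 and 14, so on those days it was listed only through the border zone. Another 1000 bp locus nearby, chr19:36207751-36208750, had the highest folds of all 92 member regions. It had 60.7 border zone and 10 sham tags on day 7, 6.07-fold (3.05 to 13.4), and 186 border zone and 37 sham tags on day 14, 5.04-fold (3.48 to 7.46). It was not listed on day 4 and did not enter the 3-day test. In a fit over the loci of days 7 and 14 its log2 fold change was 2.55 (SE 0.39, edgeR adjusted p = 5.12e-09). Its sham tags were under the listing floor on both days (50 and 150 tags), so it was listed only through its border zone tags. That test is therefore not independent of the listing. That fit called 4999 of 26037 loci border zone-higher and 4199 sham-higher.

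The most tagged locus of the window, chr19:36240251-36244250, lay 38.25 kb from the third called locus and had more tags in sham. It had 1085 border zone and 1263 sham tags on day 4, 331 border zone and 770 sham tags on day 7, and 1654 border zone and 1975 sham tags on day 14. Sham was higher on all 3 days, by 1.16-fold, 2.32-fold and 1.19-fold, and on day 7 it made up 770 of the 1762 sham tags of the window. The log2 fold change of -0.34 (SE 0.18) had an adjusted p of 0.239 in edgeR and was not called over the 3 days. In the fit over days 7 and 14 it was -0.62 (SE 0.18), with an adjusted p of 0.00299, while without day 7 it was -0.074 (adjusted p = 0.898). The neighbouring genes of Ankrd1 in RefSeq GRCm38.p6 are Rpp30 and Pcgf5, and whether this locus belongs to one of them was not tested.

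**Figure D3:**
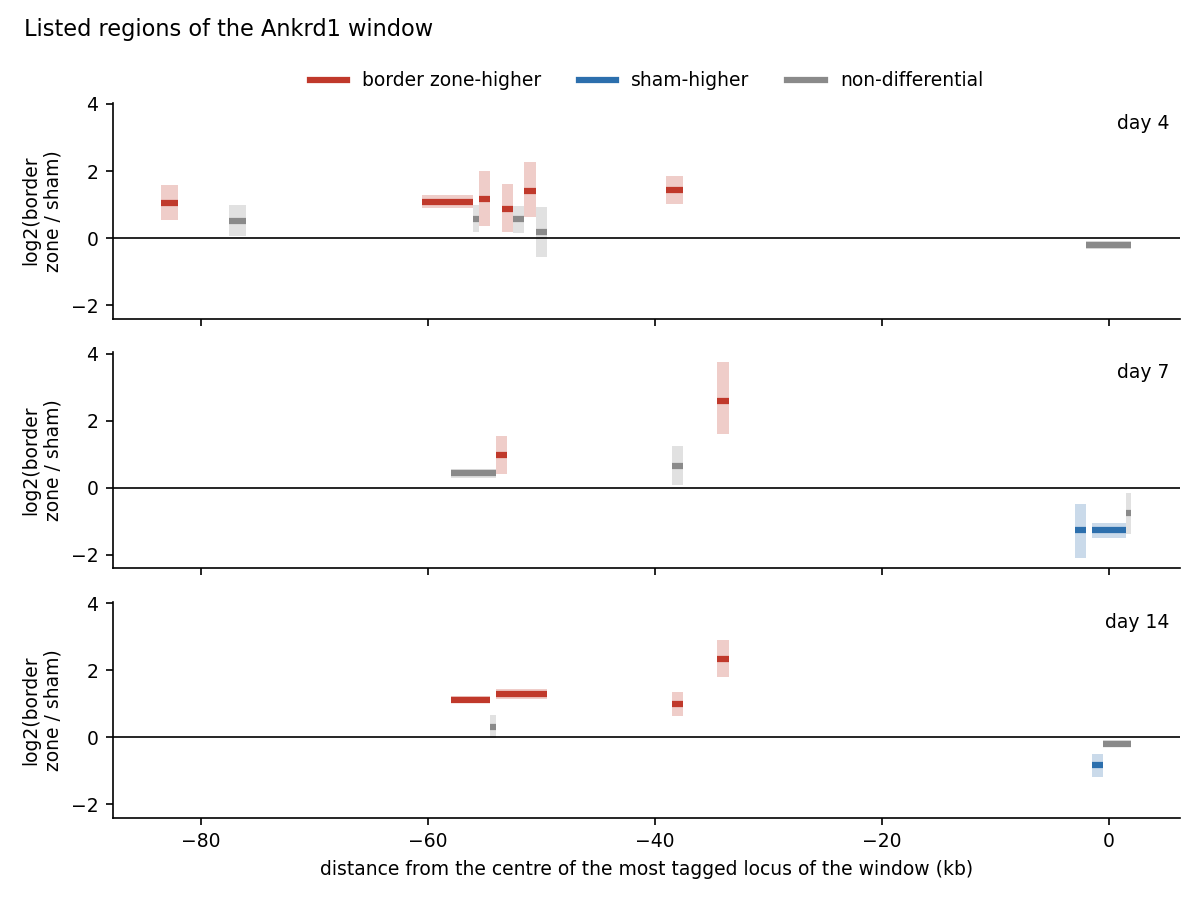
Log2 ratio of border zone to sham (vertical axis) of every listed Ankrd1 region on days 4, 7 and 14, against the distance in kb from the centre of the most tagged locus; bar length is the region's width, shading the 95% counting interval and colour the list. The regions more than 30 kb to the left lie above 0 on all 3 days, and those around 0 kb lie below it.

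Xirp2 had its border zone-higher regions on days 4 and 7 and its most tagged loci on the sham side later. The window had 855 deposited border zone tags, scaled only in differential regions, and 777 sham tags on day 4, 1.10-fold (0.997 to 1.21). On day 7 it had 245 border zone and 284 sham tags, 0.863-fold (0.714 to 1.04). Day 14 had 374 border zone and 590 sham tags, 0.635-fold (0.548 to 0.734). Of all windows, 81.5% had a lower ratio on day 4, as did 46.2% on day 7 and only 8.33% by day 14. The lists held 10, 5 and 2 regions of the window on days 4, 7 and 14. Over the 3 days the log2 fold change of -0.12 (SE 0.19) had an adjusted p of 0.712 in edgeR, and without day 14 it was 0.11.

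The 4 border zone-higher Xirp2 regions of day 4 were small, with 42.4 to 68.3 scaled tags in the border zone and 20 to 31 in sham, and none of their loci was listed on another day. On day 7, chr2:67368251-67369250 had 52.5 border zone and 16 sham tags, 3.28-fold (1.82 to 6.22), and it too was listed on that day alone. These 5 regions stand on few tags and had no repeat in a second pair of libraries. With sham tags under the listing floor, they were listed only through the border zone.

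The most tagged Xirp2 locus, chr2:67342751-67344250, had 205 border zone and 191 sham tags on day 4, 53.9 border zone and 103 sham tags on day 7, and 255 border zone and 363 sham tags on day 14. The libraries were within counting error of each other on day 4, and sham was higher on days 7 and 14. The locus chr2:67318251-67319750 had 156 border zone and 194 sham tags on day 4, 43.1 border zone and 69 sham tags on day 7, and 119 border zone and 227 sham tags on day 14, with sham higher on all 3 days. Neither was called over the 3 days by edgeR, with log2 fold changes of -0.20 (SE 0.21, adjusted p = 0.547) and -0.43 (SE 0.21, adjusted p = 0.194). In the fit over loci of days 7 and 14, in which 4199 of 26037 loci were sham-higher, their adjusted p-values were 0.0347 and 0.0223. Without day 4, among the loci listed on all 3 days, they were 0.128 and 0.0781, so neither was called. On days 7 and 14, chr2:67318251-67319750 had border zone tags under the listing floor (50 and 150 tags), so it was listed only through sham. Its test in the fit over those days is therefore not independent of the listing. The locus with the highest mean ratio among those listed on at least 2 days, chr2:67377251-67378250, had 74 border zone and 86 sham tags on day 4 and 55.2 border zone and 44 sham tags on day 7, within counting error on both.

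The Flnc window had mostly non-differential regions. It had 379 border zone and 366 sham tags on day 4, 503 border zone and 408 sham tags on day 7, and 473 border zone and 420 sham tags on day 14. The border zone was higher by 1.04-fold (0.895 to 1.20), 1.23-fold (1.07 to 1.42) and 1.13-fold (0.974 to 1.30), so only the interval of day 7 lies above 1. The log2 fold change over the days was 0.29 (SE 0.16, edgeR adjusted p = 0.293). The day 7 sum included regions with 47, 40 and 23 sham tags, under the listing floor of 50. These were listed only through the border zone, so the day 7 interval is not independent of the listing.

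The most tagged Flnc locus, chr6:29387751-29390250, had 117 border zone and 103 sham tags on day 4, 121 border zone and 97 sham tags on day 7, and 248 border zone and 181 sham tags on day 14. The border zone was higher on each day, and the interval of day 14 excludes 1. Its log2 fold change of 0.53 (SE 0.20) had an adjusted p of 0.088 in edgeR. The locus chr6:29423751-29424750, with the lowest mean ratio of the window, had 53 border zone and 55 sham tags on day 4, 80.8 border zone and 66 sham tags on day 7, and 225 border zone and 239 sham tags on day 14, and its log2 fold change was 0.24 (SE 0.22, edgeR adjusted p = 0.503). The 1 border zone-higher region belonged to chr6:29412751-29414250, with 51.3 border zone and 23 sham tags on day 7, a locus at 52 border zone and 54 sham tags on day 4. With sham tags under the listing floor, that day 7 region was listed only through the border zone.

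In the deposited values, the Des window was slightly lower in the border zone on every day. It had 1214 border zone and 1334 sham tags on day 4, 0.910-fold (0.841 to 0.984). On day 7 it had 927 border zone and 1122 sham tags, 0.826-fold (0.750 to 0.909), and the day 14 sums were 2720 border zone and 2926 sham tags, 0.930-fold (0.878 to 0.985). These ratios were close to the middle of all windows, above 48.8%, 42.7% and 44.2% of them. Every Des region of day 4 was non-differential, so the border zone tags of that day are unscaled counts. As densities per listed tags, day 4 had 22.2 (21.0 to 23.5) in the border zone and 22.6 (21.4 to 23.8) in sham, with overlapping intervals. The log2 fold change over the days was -0.07 (SE 0.12, edgeR adjusted p = 0.768).

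Within Des, the called locus chr1:75343251-75344750 had 179 border zone and 146 sham tags on day 4, 70.0 border zone and 44 sham tags on day 7, and 396 border zone and 278 sham tags on day 14. The border zone was higher on all 3 days, by 1.23-fold, 1.59-fold and 1.43-fold, and the locus was listed as non-differential each time. On day 7, with 44 sham tags, under the listing floor, the locus was listed only through the border zone. Its log2 fold change of 0.66 (SE 0.20) had an adjusted p of 0.0365 in edgeR. The adjusted p was 0.0943 in DESeq2, 0.124 with the authors' scaling in place of TMM, 0.134 without day 7 and 0.35 without day 14, and in each of these the locus was not called.

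The most tagged Des locus, chr1:75365251-75368750, 23 kb away, had 483 border zone and 530 sham tags on day 4, 251 border zone and 373 sham tags on day 7, and 842 border zone and 1010 sham tags on day 14. In the deposited values sham was higher on each day, by 1.10-fold, 1.49-fold and 1.20-fold. The day 4 interval, 0.968 to 1.24, includes 1, and the border zone tags of that day are unscaled. The log2 fold change was -0.11 (SE 0.17, edgeR adjusted p = 0.699). This locus holds 1 of the 3 sham-higher regions of the window, all of day 7. The locus chr1:75389251-75391250 crosses the edge of the window.

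**Figure D4:**
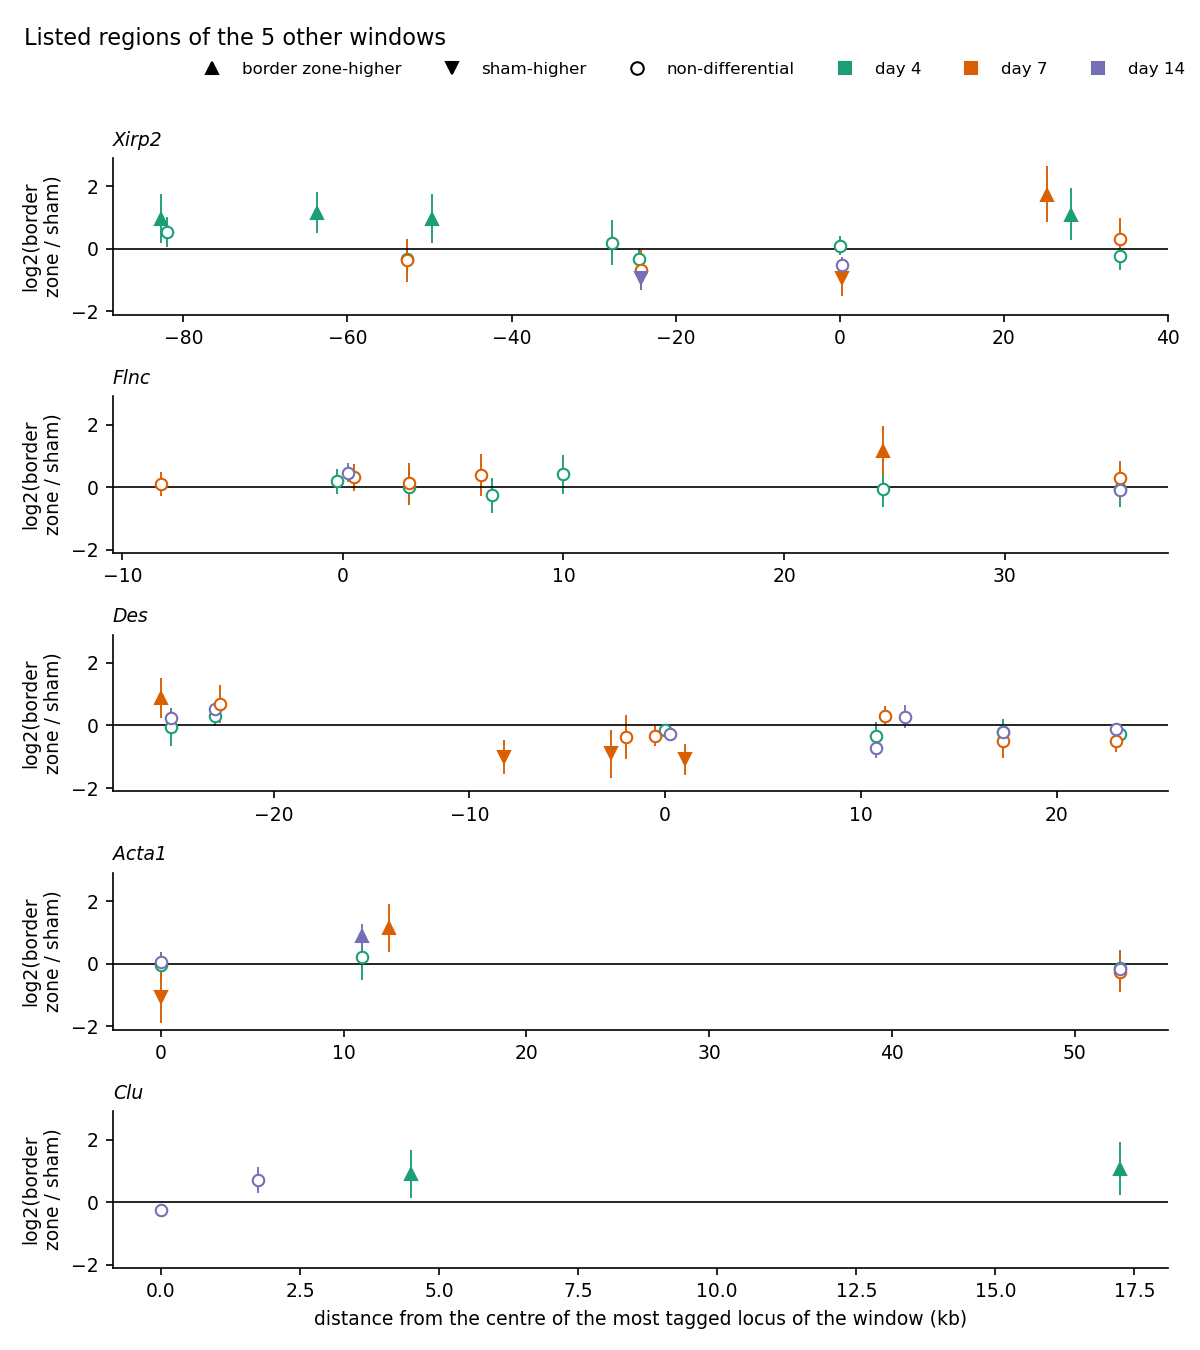
Log2 ratio of border zone to sham (vertical axis, bars are 95% counting intervals) of every listed region of the Xirp2, Flnc, Des, Acta1 and Clu windows, against the distance in kb from the centre of the most tagged locus of each window. Filled triangles are the 11 border zone-higher (pointing up) and 6 sham-higher (pointing down) regions, open circles are non-differential, and colours give the day.

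In the Acta1 window the border zone and sham libraries were within counting error of each other on all 3 days. There were 181 border zone and 184 sham tags on day 4, 125 border zone and 133 sham tags on day 7, and 690 border zone and 630 sham tags on day 14. The ratios were 0.984-fold (0.797 to 1.21), 0.942-fold (0.719 to 1.23) and 1.09-fold (0.972 to 1.23), and the log2 fold change over the days was 0.14 (SE 0.21, edgeR adjusted p = 0.702).

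The most tagged Acta1 locus, chr8:126395751-126396750, had 91 border zone and 94 sham tags on day 4, 25.6 border zone and 53 sham tags on day 7, and 263 border zone and 253 sham tags on day 14. Sham was 2.07-fold higher (1.21 to 3.70) on day 7 and the libraries differed by less than counting error on the other days. On day 7 its border zone tags were under the listing floor of 50, so it was listed only through sham, which fixes that direction. Over the days the log2 fold change was -0.03 (SE 0.23, edgeR adjusted p = 0.941). The locus with the highest mean ratio, chr8:126406751-126407750, was not listed on day 7. It had 36 border zone and 31 sham tags on day 4 and 180 border zone and 98 sham tags on day 14, where the fold was 1.83 (1.40 to 2.41). The border zone-higher region of day 7, chr8:126408251-126409250, lay next to that locus and had 52.5 border zone and 24 sham tags. On each of these days the sham tags of both were under the listing floor, so both were listed only through the border zone.

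Clu had 4 regions, each listed on 1 day. On day 4, chr14:66593251-66594750 had 44.5 border zone and 24 sham tags, 1.85-fold (1.10 to 3.19), and chr14:66606251-66607250 had 39.3 border zone and 19 sham tags, 2.07-fold (1.16 to 3.80). Both were border zone-higher, on few tags. On day 14, chr14:66588751-66590250, the most tagged, had 383 border zone and 459 sham tags, 0.834-fold (0.716 to 0.969), and chr14:66590751-66591750 had 151 border zone and 92 sham tags, 1.64-fold (1.23 to 2.19). The window sum was 1.95-fold (1.33 to 2.89) on day 4 and 0.968-fold (0.848 to 1.10) on day 14. Both day 4 regions had sham tags under the listing floor of 35, so they were listed only through the border zone. The direction of the day 4 sum was thus set by the listing. The day 14 region with 92 sham tags was under the floor of 150 and was also listed only through the border zone. Different regions carried the value on the 2 days. The 3-day test needed a listed region on every day, and the Clu window was not tested over days 4 and 14 alone.

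**Figure D5:**
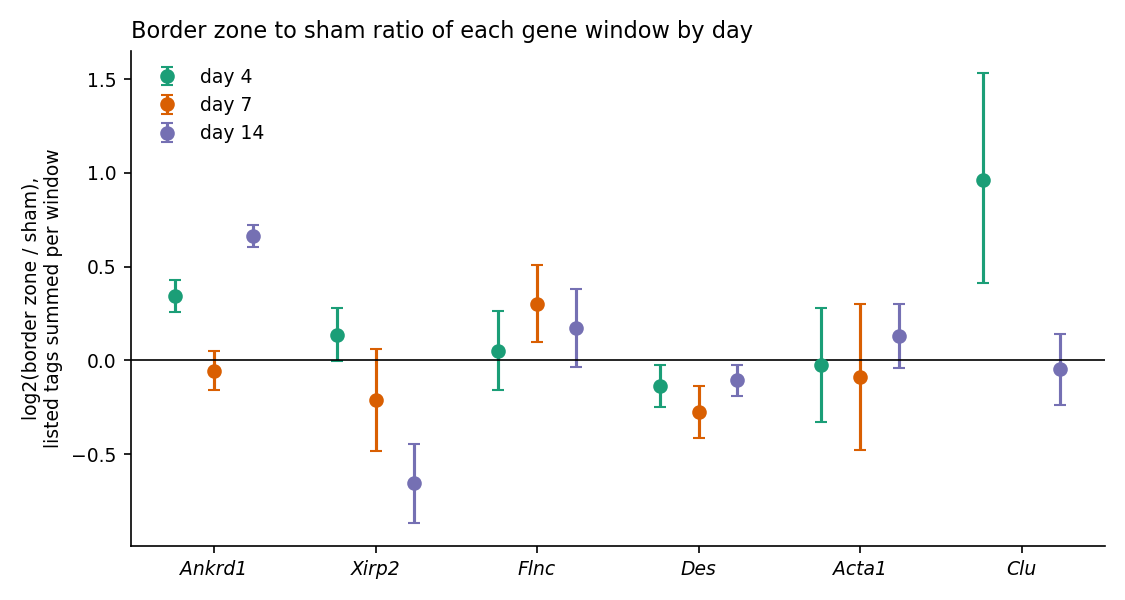
Log2 ratio of border zone to sham for the summed listed tags of each gene window (vertical axis) on days 4, 7 and 14, with 95% counting intervals. Ankrd1 lies above 0 on days 4 and 14, Des lies below 0 on all 3 days, and Xirp2 lies lower on day 14 than on day 4. The day 4 border zone tags of non-differential regions, which include all those of Des, are unscaled.

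By the distance between their 3 daily log2 ratios, the windows most alike were Acta1 and Des, at 0.32. For Flnc the nearest was Acta1, at 0.40, for Xirp2 it was Des, at 0.62, and for Ankrd1 it was Acta1, at 0.65. The largest distance was between Ankrd1 and Xirp2, at 1.34, and Clu could not be placed without day 7.

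The 6 libraries held 2743754 to 10328100 whole tags in listed regions from the border zone and 3858892 to 13936013 from sham, with the fewest on day 7. These sums are not the depth of the libraries, which is unknown here. The member windows held 2620 to 8386 border zone tags and 3709 to 9353 sham tags per library. Intervals of folds and ratios are exact binomial and those of densities exact Poisson, and both cover counting error only. In such bulk libraries, fewer nuclei of a cell type and less open chromatin per nucleus cannot be told apart. The labelled cell type was not checked against marker genes, since no mm9 annotation was used here, and for the same reason no region was assigned to a promoter, exon or intron.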

How the data were processed

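ATAC-seq region lists of 6 libraries were analysed, and the 30 RNA-seq samples were not analysed here. The submitters' processing notes name Bowtie2 for day 4, BWA for days 7 and 14, bedtools for all and the build mm9. Not given in the sources used here are versions, the region caller and its thresholds, duplicate removal and any transposase offset. Per the labels' protocols, day 4 was sequenced as pairs of 76 bp reads.

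Per the file headers, the lists give sham tags and border zone tags. Sham tags are deposited counts. Border zone tags are a deposited signal, scaled by the authors to sham; only the day 4 non-differential list holds deposited counts instead. In the values, 97.7% of 85106 scaled tags were a whole number times 1 factor within 0.001%, 1968 were sums of such terms and 29 were approximate. Of 66 scaled member values, 64 had 1 factor and 2 were sums. The main factors were 1.0345, 1.3469 and 1.3712 on days 4, 7 and 14. Differential and non-differential regions alike had at least 35, 50 and 150 tags in the larger library on those days. Differential regions also had a fold of at least 1.75 in the deposited values. Columns of other samples used numbered 0.

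Whole tags were tested with edgeR 4.0.16 (R 4.3.3), TMM and day as a block, adjusted over all 9931 windows or 19733 loci at 0.05. The border zone and sham libraries of a day are paired by the labelled day. The SE is the absolute log2 fold change over the square root of F. DESeq2 1.42.0, other scalings, filters, days left out and a fit without the block were alternatives, and the authors' scaling was added after seeing the data. The test was checked on simulated counts. The labels name no separate animals, so p-values reflect the spread among these libraries. Folds are of the deposited values, border zone over sham, with exact 95% intervals, and tags are not independent molecules.

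Text values were given for every called locus, the most tagged locus of each window, and the loci listed on at least 2 days with the highest and lowest mean ratio; other regions singled out were chosen after their values were seen. The members and lists were chosen with earlier results of these data known. Marker genes of heart cell types and a list of partner genes were to be placed with an mm9 annotation and were not used here.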

Additional observations from a re-analysis of the deposited data

Results flagged for a closer look

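These results had log2 ratios of opposite sign on different days, with counting intervals that do not overlap. In each, the interval of the day with the weaker ratio includes 0, so the direction on that day is not resolved. Each day has 1 library per condition, so the difference between days was not tested. The Ankrd1 window had a log2 ratio of border zone to sham of 0.66 (0.60 to 0.72) on day 14 and -0.06 (-0.16 to 0.05) on day 7, a difference of 0.72. With a factor from listed totals the day 7 ratio was 0.015, so its direction depends on the scaling. On day 7 its most tagged locus held 770 of the 1762 sham tags and was 2.32-fold higher in sham. The Xirp2 window had 0.14 (-0.0048 to 0.28) on day 4 and -0.66 (-0.87 to -0.45) on day 14, a difference of 0.79. It had 10 regions listed on day 4 and 2 on day 14. The day 14 region with 119 border zone and 227 sham tags was listed only through sham. The Clu window had 0.96 (0.41 to 1.53) on day 4 and -0.05 (-0.24 to 0.14) on day 14, a difference of 1.01, from different regions on each day. Its day 4 regions were listed only through the border zone, which set the direction of that day. The most tagged Xirp2 locus had 0.10 (-0.19 to 0.39) on day 4 and -0.93 (-1.50 to -0.40) on day 7, a difference of 1.04. The most tagged Acta1 locus had 0.06 (-0.22 to 0.33) on day 14 and -1.05 (-1.89 to -0.27) on day 7, a difference of 1.11. On day 7 that locus was listed only through sham, which set the direction of that day. Day 4 also differed from days 7 and 14 in genotype, isolation and aligner, and day 7 had the fewest tags; the part of these in the differences was not tested.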

How the results depend on the processing

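The fit over 3 days had 2 residual degrees of freedom, and a day left out leaves 1. The 3 Ankrd1 loci kept their direction under every alternative run, with log2 fold changes of 0.81 to 1.40. They lost their calls without the replicate block (adjusted p = 0.997), and 1 of them lost it without day 14. With the authors' scaling in place of TMM the median of all loci was -0.19, against -0.01 with TMM, and the 3 Ankrd1 loci had adjusted p-values of 0.00374 to 0.00723. The Des locus was called under 5 of 11 alternatives. A minimum of 200 tags and an overlap of 500 bp gave the same loci and values. Calls over all 19733 loci numbered 3094 toward the border zone and 2141 toward sham without day 4, 953 toward the border zone and 129 toward sham without day 7, and 554 toward the border zone and 21 toward sham without day 14. Calls over the 26037 loci listed on days 7 and 14 numbered 4999 toward the border zone and 4199 toward sham. Called member loci higher in the border zone numbered 0 without the replicate block and 2 to 6 with 1 day left out. Those higher in sham numbered 0 to 1 with 1 day left out and 3 among the 17 loci listed on days 7 and 14. Among the latter was chr2:67318251-67319750 of Xirp2, which was listed only through sham on days 7 and 14. Leaving out a day gave log2 fold changes of 0.25 to 0.56 for the Ankrd1 window, which was called without day 4, and of -0.34 to 0.11 for Xirp2, which turned positive without day 14. Xirp2 was also positive, at 0.0488, without the replicate block. The most tagged Acta1 locus lay between -0.20 and 0.17 with 1 day left out, positive without day 7. At a fold of at least 2, the lists held 15 border zone-higher and 5 sham-higher member regions. With 1 day left out they held 11 to 18 border zone-higher and 2 to 9 sham-higher. Leaving out non-differential regions moved 8 daily window ratios beyond their counting intervals. The cause of these changes was not tested. Over the 3 days, no other window changed its call or direction. Of the daily window ratios, 3 that were below 0 turned positive with another factor. Acta1 on day 4 had 0.025 with the median factor and 0.087 with listed totals. Acta1 on day 7 had 0.0038 and 0.066 with these, and 0.020 without non-differential regions. Ankrd1 on day 7 had 0.015 with listed totals.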
